A study of Mus musculus with 2 samples.

Results

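The genes described here are 10 C-type lectin receptors of myeloid cells: Clec4d, Clec4e, Clec4n, Clec7a, Clec9a, Clec12a, Clec4a3, Clec10a, Mgl2 and Cd209a. They were chosen by symbol, and 9 of them had a row among the 32285 genes of the count tables. Clec7a was not analysed here. The cells were leukocytes sorted on the surface protein CD45 from subcutaneous mouse tumours of B16F10-OVA, a melanoma line that carries ovalbumin as a model antigen. One group of mice had received PBS, a saline buffer, and the other UDSP-Hep, an agent that the labels name without describing, each at days 10, 12, 14 and 16. Tumours were taken at day 19, and 3 tumours per group were pooled into 1 droplet library with unique molecular identifiers (UMIs), which count captured RNA molecules. Each group was thus 1 library: no difference below has a replicate check, and none was tested.

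C-type lectin receptors are surface proteins that bind sugars, lipids or exposed components of dead cells. Clec4e (Mincle), Clec4d (MCL) and Clec4n (Dectin-2) pair with the adaptor Fc receptor gamma chain, which activates the kinase Syk and, through the Card9 complex, NF-kappaB. Clec7a (Dectin-1) and Clec9a (DNGR-1) recruit Syk through a motif in their own tails. Clec12a (MICL) carries an inhibitory motif that recruits phosphatases, and Clec4a3 belongs to the DCIR family. Clec10a (MGL1) and Mgl2 bind galactose and N-acetylgalactosamine and are known from type 2 dendritic cells and alternatively activated macrophages. Cd209a belongs to the DC-SIGN family.

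Of the 10 genes, 7 lie on mouse chromosome 6 of build GRCm38, in 2 runs. Clec4a3 (122952515 to 122969875, plus strand), Clec4n (123229843 to 123247021, plus), Clec4d (123262111 to 123275265, plus) and Clec4e (123281789 to 123289870, minus) form the first run. Clec12a (129342691 to 129365303, plus), Clec9a (129408862 to 129424763, plus) and Clec7a (129461591 to 129472779, minus) form the second. Mgl2 (70130329 to 70137550, plus) and Clec10a (70156197 to 70170834, plus) lie near each other on chromosome 11, and Cd209a (3743397 to 3748984, minus) lies on chromosome 8. Mgl2 and Clec10a are close relatives: 13.7% of the distinct 31-base words in Clec10a transcripts also occurred in Mgl2, and 19.3% of those in Mgl2 occurred in Clec10a. The sources used here do not say how reads from these shared stretches were divided between the 2 genes, so the split between them is uncertain. Of the other measured members, Clec9a shared 4.63% of its words with the nearest of the 32 related genes compared, and Clec4a3 shared 1.36% with its nearest.

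The proximal promoters of 4 members are shown because their genes stood for the patterns below. Clec4d and Clec4e, neighbours on the chromosome, were both higher in the macrophages of the UDSP-Hep library, Mgl2 was lower there, and Clec9a had its highest level in type 1 dendritic cells. Each sequence is from RefSeq (GRCm38.p6), covers 250 bases before to 50 bases after the gene start and reads 5′ to 3′ on the gene's own strand. RefSeq promoters were matched for 8 of the 10 members. Capitals mark the core of the PU.1 motif, GAGGAA, and the C/EBP motif TTGCNNAA, each on either strand. Both factors are regulators of myeloid genes. No match shown overlaps another.
Clec4d chr6:123261857-123262156, plus strand: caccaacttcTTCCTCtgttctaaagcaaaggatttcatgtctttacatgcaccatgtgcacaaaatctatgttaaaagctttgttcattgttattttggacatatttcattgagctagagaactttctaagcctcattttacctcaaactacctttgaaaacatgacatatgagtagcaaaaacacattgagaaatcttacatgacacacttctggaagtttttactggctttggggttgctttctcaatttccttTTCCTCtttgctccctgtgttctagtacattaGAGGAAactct
Clec4e chr6:123289822-123290121, minus strand: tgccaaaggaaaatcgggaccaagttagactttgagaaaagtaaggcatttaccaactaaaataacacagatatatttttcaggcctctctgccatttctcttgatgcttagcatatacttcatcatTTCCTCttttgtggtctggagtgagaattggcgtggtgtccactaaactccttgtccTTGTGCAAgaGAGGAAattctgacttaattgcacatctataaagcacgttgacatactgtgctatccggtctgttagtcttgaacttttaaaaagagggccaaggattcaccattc
Mgl2 chr11:70130107-70130406, plus strand: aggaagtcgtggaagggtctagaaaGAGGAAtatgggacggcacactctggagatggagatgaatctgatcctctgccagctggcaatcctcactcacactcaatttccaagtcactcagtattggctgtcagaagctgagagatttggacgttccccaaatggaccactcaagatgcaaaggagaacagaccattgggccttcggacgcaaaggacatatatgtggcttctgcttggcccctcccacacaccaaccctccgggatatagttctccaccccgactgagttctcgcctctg
Clec9a chr6:129408612-129408911, plus strand: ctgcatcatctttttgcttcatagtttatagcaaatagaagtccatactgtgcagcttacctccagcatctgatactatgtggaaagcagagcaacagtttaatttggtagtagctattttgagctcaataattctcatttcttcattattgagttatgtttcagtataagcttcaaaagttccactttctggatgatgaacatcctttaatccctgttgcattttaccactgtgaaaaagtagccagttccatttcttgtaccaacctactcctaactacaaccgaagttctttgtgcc

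The Clec4d promoter held 3 PU.1 core matches and that of Clec4e held 2, with 1 C/EBP match. Mgl2 had 1 PU.1 core match, and Clec9a had no match to either motif. Of the other members with a promoter, Clec12a had 2 PU.1 core matches, 1 C/EBP match and 1 match to the AP-1 motif TGANTCA, also searched on both strands. Clec7a had 1 PU.1 core match, Clec4a3 had 0 in 1 of its 2 RefSeq entries and 1 in the other, Cd209a had 0, and none of these 3 matched the other motifs. Such letters are common: among 32851 promoters of the same length, 28.3% held the PU.1 core, 10.8% the C/EBP motif and 7.81% the AP-1 motif. A match is a description of the sequence and says nothing on whether the factor was bound.

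The PBS library held 7379 barcodes and 74685827 UMIs, and the UDSP-Hep library 7872 barcodes and 64241224 UMIs, with median depths of 7890 and 5641 UMIs. After filters on depth, mitochondrial share and doublets, 6717 and 7195 cells remained. The libraries shared 25 barcodes. Cells were clustered without the lectin genes and named from markers that held none of them. In the text, values in pairs are PBS first and UDSP-Hep second. Levels are CPM, the UMIs of a gene per 1000000 UMIs of all cells of a group, and every ratio is UDSP-Hep over PBS with its 95% interval, which covers counting error only. A member is called higher where the ratio reached 1.5 and lower where its inverse did, if the interval excluded 1 and at least 20 UMIs were summed over both libraries.

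The groups were macrophages (882 and 330 cells), monocytes (1165 and 587), nonclassical monocytes (239 and 573), type 2 dendritic cells or cDC2 (423 and 289), type 1 dendritic cells or cDC1 (104 and 16), mature dendritic cells (168 and 49), plasmacytoid dendritic cells (83 and 32) and neutrophils (57 and 844). A further 1701 and 1251 cells, 25.3% and 17.4% of each library, fell in clusters C5 and C7. Macrophage markers scored highest in them, but by less than the lead of 0.5 required for a name. In C5 the next were monocyte markers (mean log2 ratios of 0.484 and 0.404). In C7 the next were plasma cell markers (0.434 and 0.376), so only C5 scored between macrophages and monocytes. The cells of both clusters together held 6591 and 7141 CPM of the 9 monocyte markers and 4982 and 5746 CPM of the 11 macrophage markers. They are called intermediate phagocytes. All 11 macrophage, 9 monocyte and 8 neutrophil markers were detected in their own group in both libraries.

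**Figure D1:**
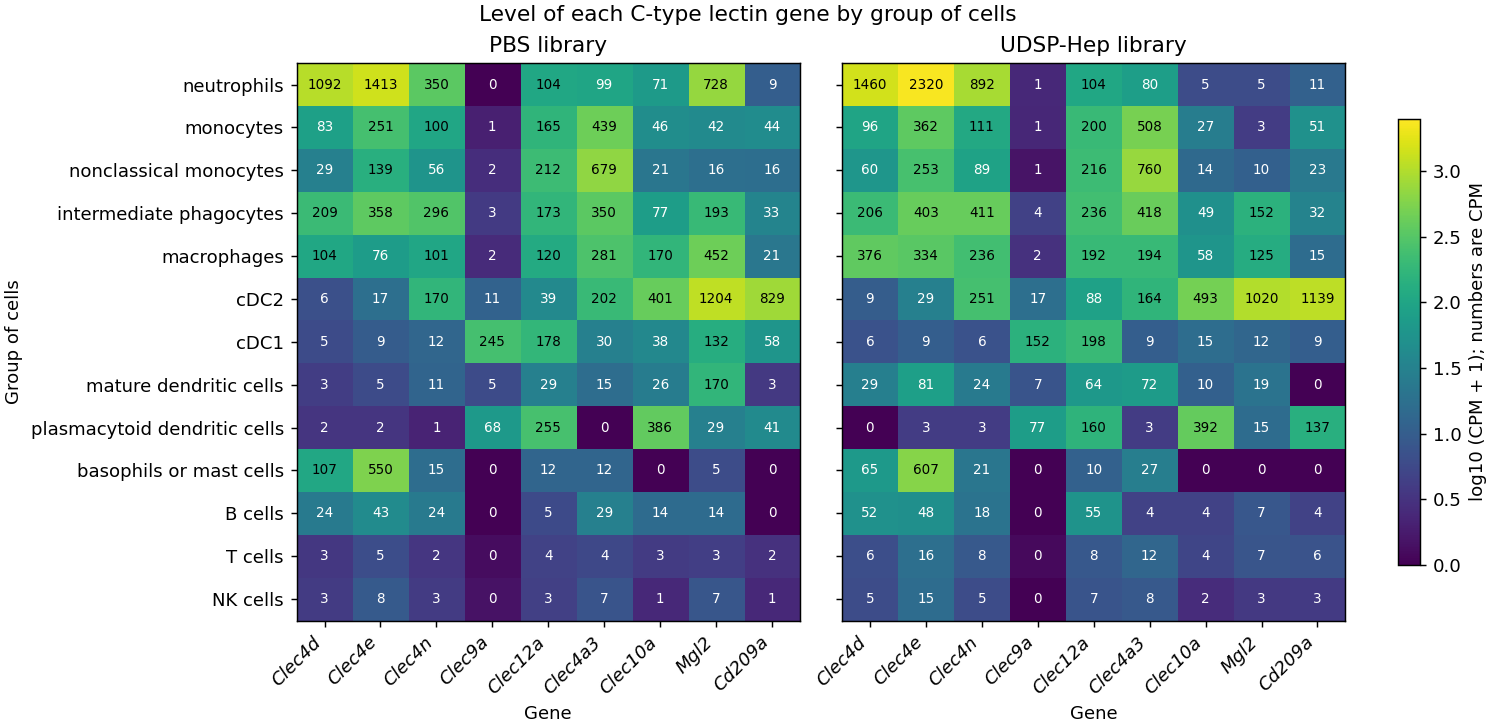
Level of the 9 measured lectin genes (columns) in 13 groups of cells (rows) in the PBS library (left) and the UDSP-Hep library (right). Colour is log10 of CPM + 1 and the printed numbers are CPM. Clec4d, Clec4e and Clec4n were highest in neutrophils in both libraries, Mgl2 and Cd209a in cDC2, and Clec4a3 in nonclassical monocytes.

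Among the activating receptors, Clec4e, the receptor for mycobacterial cord factor, was highest in neutrophils at 1413 and 2319.5 CPM. It came next in basophils or mast cells (550.5 and 607 CPM), then in intermediate phagocytes (358 and 403 CPM) and monocytes (251 and 362 CPM), and these 4 groups did not overlap in their intervals in either library. Monocytes and macrophages (334 CPM) overlapped in the UDSP-Hep library. The cDC2 stood low, at 16.6 and 29.4 CPM. A UMI of Clec4e was found in 49.2% and 41.4% of basophils or mast cells, at median depths of 4595.5 and 4764 UMIs. In T cells, which are not known to express Clec4e and had median depths of 6092.5 and 5075.5 UMIs, the shares were 3.44% and 9.41%.

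Clec4d, the partner of Mincle, was led by neutrophils (1092 CPM) and intermediate phagocytes (209 CPM) in the PBS library. In the UDSP-Hep library neutrophils (1460.5 CPM) were followed by macrophages (376 CPM) and then intermediate phagocytes (206 CPM). Basophils or mast cells held 107 and 65.1 CPM. Clec4n, the receptor for fungal mannans, was at 349.8 and 892 CPM in neutrophils, 296 and 411 CPM in intermediate phagocytes and 169.5 and 251 CPM in cDC2. Neutrophils and intermediate phagocytes overlapped in their PBS intervals. Basophils or mast cells, high for Clec4e, held only 9 and 6 UMIs of Clec4n. Neither of the 2 members with enough UMIs there, Clec4d and Clec4e, was called, against 6.23% of genes called higher and 4.74% lower, with ratios of 0.609 (0.344 to 1.03) and 1.10 (0.913 to 1.33).

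Clec9a, the receptor for actin filaments of dead cells, had its highest levels in cDC1 and plasmacytoid dendritic cells. In the UDSP-Hep library, with 16 cDC1, these groups held only 20.7% and 11.0% of its UMIs. There cDC2 held 28.3% and intermediate phagocytes 21.9%. Its level was 245 (227 to 264) and 152 (112 to 201) CPM in cDC1 and 67.8 (51.5 to 87.7) and 77.2 (50.4 to 113) CPM in plasmacytoid dendritic cells. The next group, cDC2, held 10.7 and 16.6 CPM, and every other group stood below 7 CPM in both libraries. A UMI of Clec9a was found in 86.5% and 81.3% of cDC1 and in 47.0% and 50% of plasmacytoid dendritic cells, at median depths of 25093.5 and 22945 and of 10183 and 10008.5 UMIs, against 0.265% and 0.152% of T cells.

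The inhibitory receptor Clec12a was spread over many groups. In the PBS library it ran from 255 CPM in plasmacytoid dendritic cells through nonclassical monocytes (212 CPM), cDC1 (178 CPM), intermediate phagocytes (173 CPM) and monocytes (165 CPM) to macrophages (119.9 CPM). Each of the first 4 overlapped the next in its interval. In the UDSP-Hep library the 133 eosinophils, with a median of only 728 UMIs, stood at 272 (185 to 387) CPM, which overlapped the 236 CPM of intermediate phagocytes. Clec4a3 kept 1 order in both libraries. It went down from nonclassical monocytes (679 and 759.9 CPM) to monocytes (439 and 508 CPM), intermediate phagocytes (349.6 and 418 CPM), macrophages (281 and 194 CPM) and cDC2 (202 and 164 CPM), with no overlap between neighbours in either library.

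The galactose-type receptors and Cd209a led in cDC2. Mgl2 was at 1204 and 1019.8 CPM there, Cd209a at 829 and 1139 CPM and Clec10a at 401 and 493 CPM. Clec10a was also well seen in plasmacytoid dendritic cells, at 386 and 392 CPM and in 88.0% and 87.5% of cells, while Mgl2 was at 29.2 and 14.8 CPM in the same cells. The intervals of Clec10a in cDC2 and plasmacytoid dendritic cells overlapped in the PBS library and did not in the UDSP-Hep library. For Cd209a the group next to cDC2 held 57.7 CPM in PBS (cDC1) and 137 CPM in UDSP-Hep (plasmacytoid dendritic cells). For Mgl2 the PBS neutrophils came next at 728 CPM, a value that rested on 1 barcode described below.

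Over all kept cells, Clec4d stood at 91.7 and 170.4 CPM, a ratio of 1.86 (1.80 to 1.92), and Clec4e at 159.9 and 300.1 CPM, a ratio of 1.88 (1.83 to 1.92). Neutrophils held 3.81% and 32.2% of all Clec4d UMIs in the respective libraries. For Clec4e the neutrophil share was 2.83% and 29.0%, and for Clec4n 0.854% and 15.03%. Without neutrophils the ratios over all cells were 1.36 (1.31 to 1.41) for Clec4d, 1.42 (1.38 to 1.46) for Clec4e and 1.51 (1.46 to 1.55) for Clec4n, against 1.70 (1.65 to 1.74) for Clec4n with them.

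Mgl2, Clec10a and Clec9a stood lower over all cells of the UDSP-Hep library. Mgl2 was at 265 and 138 CPM, a ratio of 0.521 (0.507 to 0.535), and macrophages held 26.2% and 7.89% of its UMIs. Clec10a had a ratio of 0.641 (0.615 to 0.667), with 25.3% and 7.71% of its UMIs in macrophages. Clec9a was at 13.6 and 4.25 CPM, a ratio of 0.313 (0.270 to 0.362), with 75.7% and 20.7% of its UMIs in cDC1, which numbered 104 and 16 cells. Cd209a, Clec4a3 and Clec12a had ratios of 1.02 (0.986 to 1.06), 1.07 (1.05 to 1.09) and 1.29 (1.25 to 1.33).

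**Figure D2:**
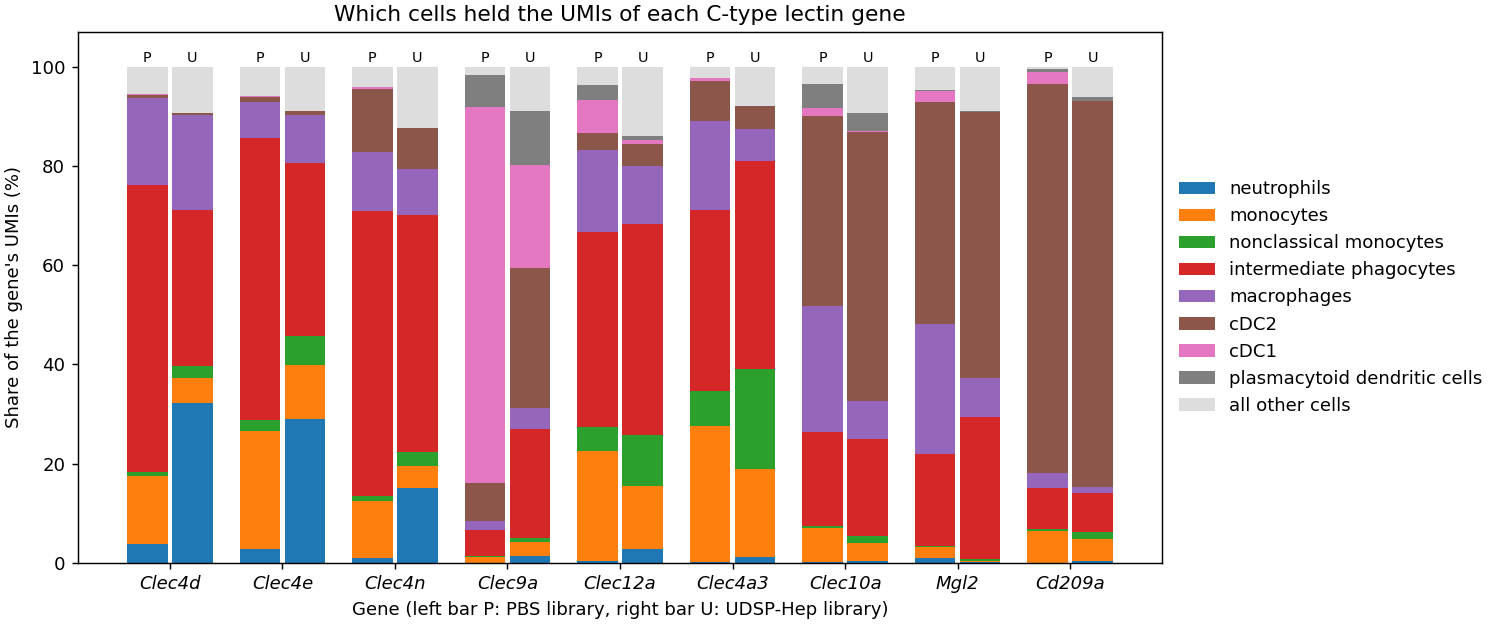
Share (%) of each gene's UMIs held by each group of cells, for the PBS library (left bar, P) and the UDSP-Hep library (right bar, U) of each gene. The neutrophil part of Clec4d was 3.81% and 32.2%, and the cDC1 part of Clec9a was 75.7% and 20.7%.

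Macrophages of the UDSP-Hep library had more of the 3 receptors that use the Fc receptor gamma chain and less of the 2 galactose-type receptors. Clec4d was at 104 (98.0 to 111) and 376 (359 to 393) CPM, a ratio of 3.61 (3.34 to 3.90). Clec4e was at 75.5 (70.2 to 81.1) and 334 (318 to 351) CPM, a ratio of 4.42 (4.06 to 4.83). Clec4n was at 101 (95.1 to 108) and 236 (222 to 249.7) CPM, a ratio of 2.33 (2.14 to 2.54). For all 3 the intervals of the libraries were far apart, and no cell held more than 5.23% of a library's UMIs of any of them. A UMI was found in 36.3% and 74.2% of macrophages for Clec4d, 30.4% and 58.5% for Clec4e and 30.05% and 53.0% for Clec4n, at median depths of 8803 and 13280.5 UMIs. With each cell thinned to 1000 UMIs, which left out 15 and 1 shallower cells, the shares were 10.8% and 24.3%, 7.27% and 22.2% and 6.57% and 14.6%.

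Mgl2 was at 452 (439 to 465) and 125 (115 to 135) CPM, a ratio of 0.275 (0.253 to 0.300). Clec10a was at 170.1 (162 to 178) and 58.1 (51.6 to 65.3) CPM, a ratio of 0.342 (0.300 to 0.388). The cells with most UMIs held 13.5% and 12.7% of these UDSP-Hep UMIs. Clec12a was called higher with a ratio of 1.60 (1.47 to 1.75), while Clec4a3, at 0.691 (0.641 to 0.744), and Cd209a, at 0.690 (0.521 to 0.904), came just short of the ratio required. For Cd209a, 1 cell held 36 of the 72 UDSP-Hep UMIs, and its ratio was above 1 within both macrophage clusters, given below. Clec9a, with 16 and 10 UMIs, had a ratio of 1.30 (0.527 to 3.05).

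In all, 4 of the 9 members were called higher and 2 lower in macrophages. Over 10968 genes counted in the same cells, 12% were called higher and 6.25% lower, 18.2% in all. The median log2 ratio was 0.38 over the members and 0.07 over all these genes. The member median was the value of Clec9a alone, from 16 and 10 UMIs with an interval that held 1, so it describes no common shift. With the libraries scaled by the median ratio over genes, 4 members were called higher and 4 lower, Clec4a3 and Cd209a being the 2 added. In macrophages, markers of other cells summed to 136 and 239.6 CPM for neutrophils, where neutrophils held 47769 and 37597 CPM, and to 3997 and 1996 CPM for monocytes, 347 and 665 CPM for nonclassical monocytes, 63.6 and 323 CPM for NK cells and 2.87 and 1.44 CPM for basophils or mast cells. Their part in the result was not tested.

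The 2 macrophage clusters did not enter the libraries in like numbers. Cluster C9, led by Gpnmb, Vcam1 and Mmp12, had 317 and 267 cells, and cluster C21, led by Cd163, Retnla and Gja1, had 565 and 63 cells. Most PBS macrophages were thus from C21 and most UDSP-Hep macrophages from C9. Within C9, Clec4e was at 77.0 and 384 CPM, a ratio of 4.98 (4.38 to 5.68), Clec4d at 188 and 453 CPM, a ratio of 2.41 (2.21 to 2.64), and Clec4n at 129 and 246 CPM, a ratio of 1.90 (1.70 to 2.13). Mgl2 had a ratio of 0.367 (0.307 to 0.438) in C9 and Clec10a 0.356 (0.286 to 0.441).

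Within C21 the ratios of most of these genes were nearer 1. Clec4n was at 85.8 and 196 CPM, a ratio of 2.28 (1.93 to 2.70), and Clec4e at 74.7 and 136 CPM, a ratio of 1.83 (1.497 to 2.22). Clec4d was at 58.3 and 65.7 CPM, a ratio of 1.13 (0.850 to 1.47), whose interval held 1. Mgl2 was at 632 and 439 CPM, a ratio of 0.695 (0.628 to 0.768), and Clec10a at 216 and 167 CPM, a ratio of 0.775 (0.655 to 0.912), both short of the ratio required. The part of the unequal cluster numbers in the class ratios was not tested. The call for Clec12a did not hold inside either cluster: its ratio was 0.928 (0.844 to 1.02) in C9 and 1.19 (0.888 to 1.56) in C21. Cd209a, below 1 over the class, had ratios of 1.15 (0.503 to 2.69) in C9 and 1.86 (1.37 to 2.51) in C21. Of its 57 UDSP-Hep UMIs in C21, 36 lay in 1 cell. With both clusters weighed the same the log2 ratio of Clec12a was -0.038, and those of Clec4d and Mgl2 were 1.08 and -0.64. That of Cd209a was 0.84. Then 6 members were called, with Cd209a, called higher, in place of Clec12a. With intermediate phagocytes counted as macrophages 4 were called. The log2 ratio of Clec4e was then 0.62, and those of Clec4d and Clec12a, 0.55 and 0.55, lay below the ratio required, so both calls were lost. Clec4e was also below it with doublets kept (0.55), and Clec4n at clustering resolution 0.5 (0.52).

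**Figure D3:**
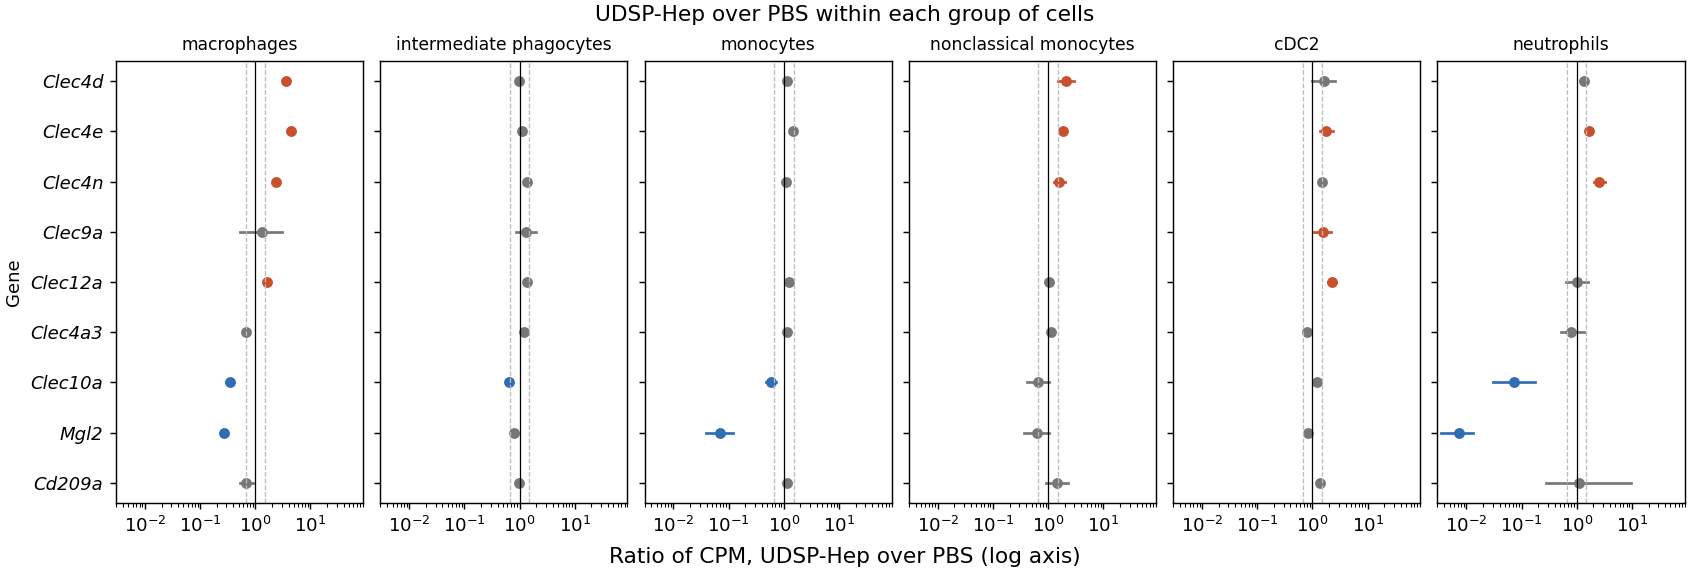
Ratio of CPM, UDSP-Hep over PBS, on a log axis for each lectin gene (rows) in 6 groups of cells (panels); points are ratios, bars are 95% counting intervals, dashed lines mark the ratio of 1.5 in each direction. Red points were called higher, blue lower and grey neither, and genes under 20 summed UMIs have no point. In macrophages Clec4d, Clec4e and Clec4n lie at 3.61, 4.42 and 2.33, and Mgl2 lies at 0.275.

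Intermediate phagocytes, the group with the most cells over both libraries, showed 1 call among 9 members: Clec10a, at 76.6 (72.5 to 80.9) and 49.4 (45.9 to 53.2) CPM, a ratio of 0.646 (0.588 to 0.708). In the same cells 11.6% of genes were called higher and 3.54% lower. Clec4d was at 209 and 206 CPM, a ratio of 0.987 (0.940 to 1.04), Clec4e at 358 and 403 CPM, a ratio of 1.13 (1.09 to 1.17) and Clec4n at 296 and 411 CPM, a ratio of 1.39 (1.33 to 1.44). The median log2 ratio of all genes here was 0.16. Neutrophil markers summed to 158 and 454 CPM, nonclassical monocyte markers to 639 and 1134 CPM and NK cell markers to 19.99 and 145 CPM, and their part in these values was not tested.

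The 2 clusters of this group differed. C7, led by Inhba, Nos2 and Egln3, held 741 and 239 cells, and C5, led by Ly6i, Cfb and Aif1, held 960 and 1012. In C7 the galactose-type receptors and Cd209a were all lower: Mgl2 was at 159 and 45.8 CPM, a ratio of 0.288 (0.236 to 0.348), Clec10a at 73.1 and 22.0 CPM, a ratio of 0.300 (0.225 to 0.395), and Cd209a at 22.7 and 6.82 CPM, a ratio of 0.300 (0.173 to 0.491). In C5 the ratios of Mgl2 and Clec10a were 0.821 (0.773 to 0.872) and 0.707 (0.637 to 0.784). Clec4e was at 219 and 349.6 CPM, a ratio of 1.59 (1.52 to 1.68) in C5, and at 589 and 643 CPM, a ratio of 1.09 (1.03 to 1.16) in C7. Clec4d was at 125 and 154 CPM, a ratio of 1.23 (1.15 to 1.33) in C5, and at 349 and 438 CPM, a ratio of 1.25 (1.17 to 1.35) in C7, so that both clusters were above 1 where the whole group was at 0.987. C7 held more Clec4d and Clec4e than C5 in both libraries and made up a smaller part of the UDSP-Hep group.

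**Figure D4:**
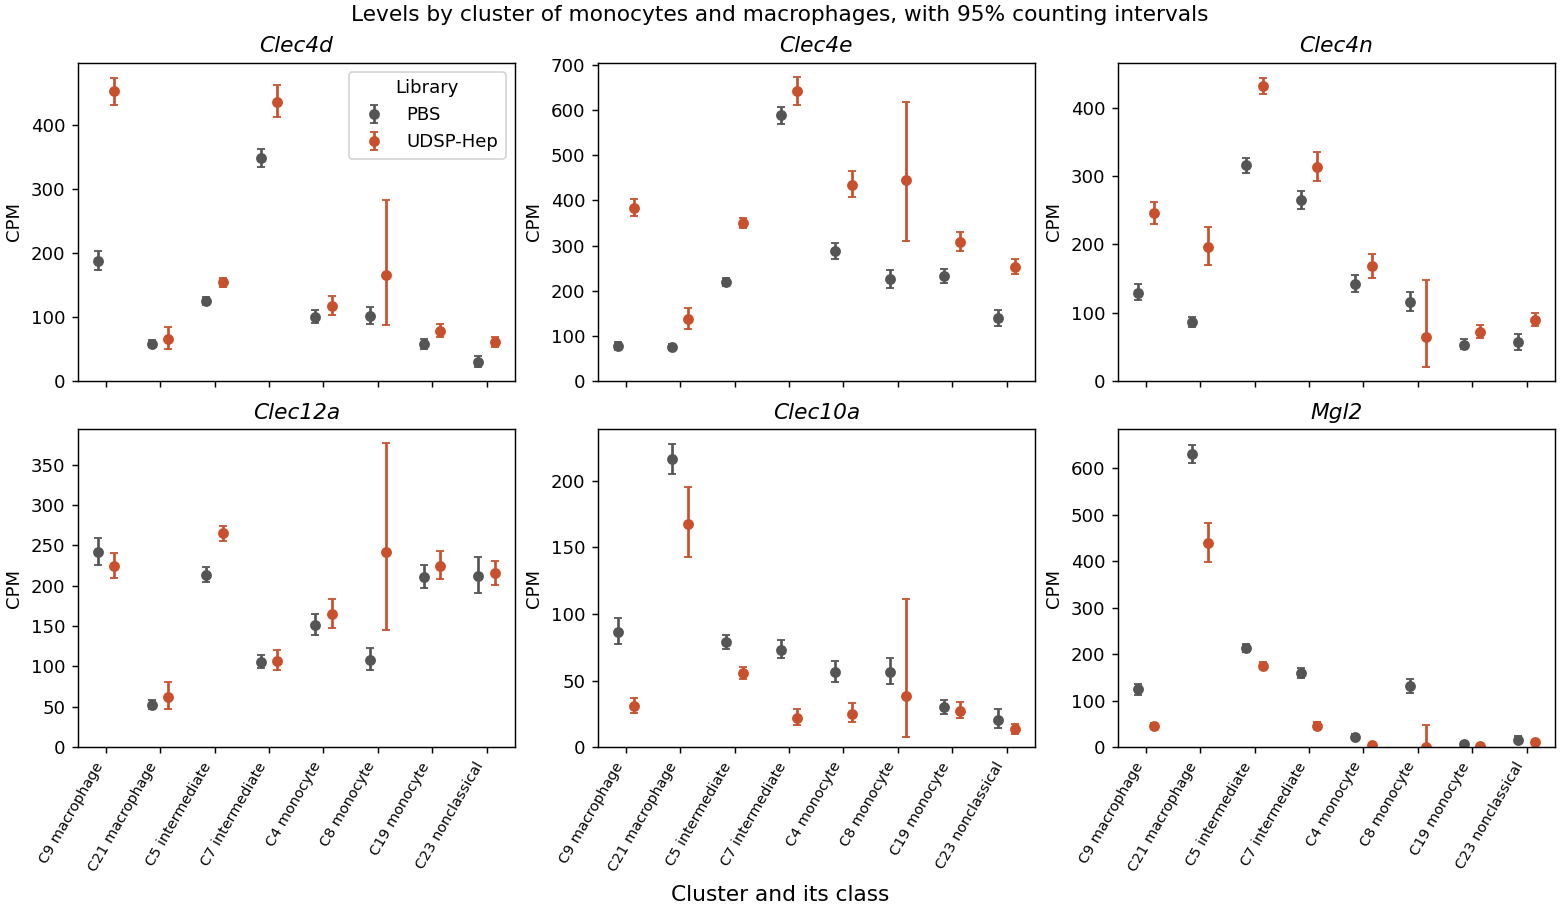
CPM of 6 lectin genes in the clusters of monocytes, intermediate phagocytes, macrophages and nonclassical monocytes, for PBS (grey) and UDSP-Hep (red); bars are 95% Poisson intervals. Mgl2 in C21 stands at 632 and 439 CPM, and Clec4e in C9 stands at 77.0 and 384 CPM. The wide intervals in C8 go with its 10 UDSP-Hep cells.

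Monocytes, blood-derived precursors of tumour macrophages, had 2 members called lower and 0 higher of the 8 with enough UMIs, while 3.36% of genes were called lower and 6.05% higher, 9.41% in all. Mgl2 was at 41.7 (37.8 to 45.9) and 2.96 (1.66 to 4.88) CPM, a ratio of 0.0709 (0.0393 to 0.118), from 417 and 15 UMIs. Clec10a was at 45.8 (41.7 to 50.2) and 26.6 (22.3 to 31.5) CPM, a ratio of 0.581 (0.476 to 0.706). The activating receptors differed less: Clec4e had a ratio of 1.44 (1.36 to 1.54), just short of that required, Clec4d 1.15 (1.03 to 1.29) and Clec4n 1.11 (0.995 to 1.23).

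The Mgl2 value rested on cluster C8. This cluster, led by the heat-shock genes Hspa1a, Hspa1b and Hspb1, had 306 and 10 cells and held 309 of the 417 PBS UMIs of Mgl2. In clusters C4 (403 and 227 cells) and C19 (456 and 350 cells) Mgl2 was at 21.9 and 3.84 CPM and at 7.03 and 2.41 CPM, with ratios of 0.175 (0.0732 to 0.362) and 0.343 (0.126 to 0.803). Without C8 the log2 ratio of Mgl2 over monocytes was -2.23, against -3.82 with it, and 2 members were called. Where each library was clustered on its own, the log2 ratio of Mgl2 was 0.96. The UDSP-Hep level of 2.96 CPM lay below that of T cells in the same library, 6.98 CPM, or 3.73 CPM without the T cell with most Mgl2 UMIs. Clec10a had a ratio of 0.442 (0.320 to 0.602) in C4 and 0.921 (0.685 to 1.23) in C19, and Clec4e was at 287 and 435 CPM, a ratio of 1.51 (1.38 to 1.66) in C4.

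Nonclassical monocytes, which patrol vessel walls, had 3 of 8 members called higher and 0 lower, against 6.46% and 1.93% of genes. They were Clec4d, Clec4e and Clec4n, which were also called in macrophages. Clec4d was at 29.1 (21.4 to 38.5) and 60.1 (52.6 to 68.3) CPM, a ratio of 2.07 (1.51 to 2.88). Clec4e was at 139 (121 to 158) and 253 (237 to 269) CPM, a ratio of 1.83 (1.58 to 2.12), and Clec4n at 56.3 (45.4 to 69.0) and 88.9 (79.7 to 98.8) CPM, a ratio of 1.58 (1.25 to 2.01). Over 10 settings, the reported one included, all 3 kept their sign, but Clec4d reached the ratio required in 7, Clec4e in 8 and Clec4n in 5. With each library clustered on its own none of them did, at log2 ratios of 0.58, 0.25 and 0.08, and at resolution 0.5 they were 0.39, 0.34 and 0.51. Neutrophil markers in these cells summed to 238 and 432 CPM over 8 genes, with 2 and 0 of the 8 at 0. Macrophage markers summed to 2094 and 2746 CPM and NK cell markers to 7.26 and 69.2 CPM, and their part in the result was not tested. Clec4a3 and Clec12a, both high here, had ratios of 1.12 (1.04 to 1.20) and 1.02 (0.895 to 1.15).

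Dendritic cells as a class (cDC2, cDC1 and mature cells, 695 and 354 in all) had 5 of 9 members called higher and 1 lower, against 5.99% and 5.34% of genes, 11.3% in all. The ratios of the 5 were 2.75 (2.19 to 3.47) for Clec4e, 2.24 (1.52 to 3.29) for Clec4d, 2.06 (1.89 to 2.24) for Clec4n, 1.92 (1.85 to 1.998) for Cd209a and 1.68 (1.58 to 1.78) for Clec10a. Clec9a had 0.366 (0.299 to 0.444). The class differed in make-up: cDC2 were 423 of 695 cells in PBS and 289 of 354 in UDSP-Hep, and cDC1 were 104 and 16 cells. With the 3 clusters weighed the same, 2 members were called instead of 6. At clustering resolution 0.5 the log2 ratio of Clec9a was 0.18, but no cluster was then named cDC1 or cDC2. The class held mature dendritic cells only at that setting. The values within each type follow for that reason.

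In cDC2, the cells that present antigen mainly to CD4 T cells, the 3 members that lead there were not called. Cd209a was at 829 (807 to 851) and 1139 (1107 to 1173) CPM, a ratio of 1.38 (1.32 to 1.43). Mgl2 was at 1204 (1178 to 1231) and 1019.8 (989 to 1051) CPM, a ratio of 0.847 (0.815 to 0.879), and Clec10a at 401 (386 to 417) and 493 (472 to 515) CPM, a ratio of 1.23 (1.16 to 1.30). All 3 intervals excluded 1, and Mgl2 stood on the other side of it from Cd209a and Clec10a. A UMI of Mgl2 was found in 64.3% and 50.5% of cDC2 and of Cd209a in 72.3% and 72.7%.

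The members called in cDC2 were 3 with lower levels, all higher, against 4.97% of genes called higher and 2.21% lower. Clec12a was at 39.3 (34.6 to 44.4) and 88.3 (79.4 to 97.9) CPM, a ratio of 2.25 (1.91 to 2.65). Clec4e was at 16.6 (13.6 to 20.02) and 29.4 (24.4 to 35.2) CPM, a ratio of 1.77 (1.36 to 2.32), and Clec9a at 10.7 (8.38 to 13.6) and 16.6 (12.8 to 21.04) CPM, a ratio of 1.54 (1.09 to 2.19). In T cells of the same libraries Clec4e was at 5.35 and 16.2 CPM, not far below the cDC2 level. The calls of these last 2 depended on settings: with the per-cell gate the log2 ratio of Clec4e was -0.089, and with thinned cells that of Clec9a was -0.44. In cDC2 the markers of nonclassical monocytes, which are high for Clec12a, summed to 481 and 778 CPM, and those of NK cells to 74.5 and 289.8 CPM. For cDC1 and plasmacytoid dendritic cells, both high for Clec9a and Clec12a, the sums were 1093 and 1296 CPM and 251 and 297 CPM. The cDC1 markers share Flt3 with those of cDC2. Macrophage markers summed to 297 and 304 CPM, monocyte markers to 3048 and 3060.4 CPM and neutrophil markers to 36.7 and 66.5 CPM, and their part in the result was not tested.

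In cDC1, the cross-presenting subset, Clec9a was called lower, with 679 and 49 UMIs in 104 and 16 cells, a ratio of 0.620 (0.454 to 0.829). Without the cell with most Clec9a UMIs in each library the ratio was 0.565 (0.400 to 0.778). The shares of cells with a Clec9a UMI were 86.5% and 81.3%, and 22.1% and 18.8% at 1000 UMIs per cell. Of the 8 members with enough UMIs, 5 were called lower and 0 higher, against 4.67% and 4.98% of genes. The other 4, Mgl2, Cd209a, Clec4a3 and Clec10a, rested on 3 to 5 UMIs each in the UDSP-Hep cells. For Mgl2, 94 of the 367 PBS UMIs lay in 1 cell, and for Clec4a3 the ratio without the top cells was 0.290 (0.0344 to 1.09), an interval that held 1. Macrophage markers summed to 282 and 43.4 CPM, with 0 and 3 of 11 at 0, and their part in these 4 values was not tested. Clec12a, well seen in cDC1, had a ratio of 1.11 (0.842 to 1.44).

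Mature dendritic cells, which migrate to lymph nodes, held little of any member except Mgl2 in the PBS library. Mgl2 was at 169.7 (153 to 188) and 18.5 (9.25 to 33.2) CPM, a ratio of 0.109 (0.0541 to 0.198). A single PBS cell held 121 of its 375 UMIs, and without the top cell of each library the ratio was 0.104 (0.0413 to 0.217). All 7 members with enough UMIs were called here, 5 higher and 2 lower, against 9.51% and 3.54% of genes. The highest ratio was that of Clec4e, at 4.98 and 80.9 CPM, a ratio of 16.2 (8.32 to 34.7). It came from 48 UMIs in 9 of 49 UDSP-Hep cells, 26 of them in 1 cell, and was 8.23 (3.74 to 19.5) without the top cells. Macrophage markers summed to 77.4 and 711 CPM, monocyte markers to 197 and 974 CPM and neutrophil markers to 8.15 and 199 CPM in these cells. The part of such markers in the result was not tested.

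In plasmacytoid dendritic cells, 5 members had enough UMIs. Cd209a was called higher, at 40.9 (28.5 to 56.9) and 137 (100.02 to 182) CPM, a ratio of 3.34 (2.10 to 5.34), from 35 and 46 UMIs in 14 and 8 cells. Single cells held 12 and 15 of these UMIs. The shares of cells with a UMI, 16.9% and 25%, overlapped in their intervals. Markers of cDC2, the group highest for Cd209a, summed to 1457 and 1749 CPM here, and their part in the result was not tested. Clec12a was called lower, at 255 and 160.4 CPM, a ratio of 0.629 (0.458 to 0.851). Of all genes counted there, 5.72% were called higher and 3.35% lower. Clec10a, with a ratio of 1.02 (0.824 to 1.25), Clec9a, with 1.14 (0.688 to 1.84), and Mgl2, with 0.508 (0.152 to 1.35), were not called.

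Neutrophils had the highest levels of Clec4d, Clec4e and Clec4n in both libraries, but the PBS library had only 57 of them, with 211558 UMIs. One PBS barcode in the cluster held 47707 of those UMIs, 22.6%, and the next largest held 16276. It carried 1444 UMIs of S100a8 and S100a9, 3 of the macrophage genes C1qa, C1qb and C1qc and 149 of the 154 Mgl2 UMIs of the group. Its doublet score was 0.0565, against a library median of 0.0340. Values without such cells are therefore given beside those of the members and the lists: leaving out neutrophils with at least 2 C1q UMIs removed this barcode and 6 UDSP-Hep cells.

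Clec4n was higher in UDSP-Hep neutrophils in both readings. It was at 349.8 (275 to 439) and 892 (852 to 933) CPM, a ratio of 2.55 (2.02 to 3.26), and 2.68 (2.05 to 3.59) without the C1q-holding cells. Clec4e was at 1413 (1258 to 1583) and 2319.5 (2255 to 2386) CPM, a ratio of 1.64 (1.46 to 1.85), which was called. Another PBS cell held 126 of its 299 UMIs. The ratio was 1.30 (1.16 to 1.47), not called, without the C1q-holding cells, and 2.60 (2.23 to 3.04) without the cell with most Clec4e UMIs in each library, so its size turned on single PBS cells. Clec4d was at 1092 (956 to 1242) and 1460.5 (1409 to 1513) CPM, a ratio of 1.34 (1.17 to 1.54), and 1.06 (0.928 to 1.22) without the C1q-holding cells.

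A UMI of Clec4d was found in 91.2% and 84.95% of neutrophils, of Clec4e in 73.7% and 80.2%, and of Clec4n in 42.1% and 53.9%, at median depths of 2266 and 2323 UMIs. With every cell thinned to 1000 UMIs, leaving out 3 and 64 shallower cells, the shares were 68.5% and 70.5% for Clec4d, 53.7% and 70.1% for Clec4e and 33.3% and 41.0% for Clec4n. In T cells thinned the same way they were 0.268% and 1.07%, 0.268% and 1.15% and 0.535% and 0.689%.

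The other 2 calls in neutrophils, both lower, came to rest on few UMIs without the large barcode. Mgl2 was at 728 and 5.26 CPM and Clec10a at 70.9 and 5.26 CPM. Without the C1q-holding cells Mgl2 had 5 and 11 UMIs, a ratio of 0.174 (0.0558 to 0.640), and Clec10a 7 and 11 UMIs, a ratio of 0.124 (0.0441 to 0.379). Both intervals still excluded 1, but each sum was under the 20 UMIs required for a call. In all, 2 of 8 members were called higher and 2 lower, against 10.5% and 10.5% of genes, 21% in all, and 1 member, Clec4n, was called without those cells. Clec12a, with 22 and 217 UMIs, had a ratio of 0.998 (0.642 to 1.63), and Clec4a3 0.804 (0.509 to 1.33). They were 0.892 (0.557 to 1.51) and 0.993 (0.565 to 1.91) without the C1q-holding cells, and none of these intervals excluded 1. NK cell markers summed to 4.73 and 253 CPM in neutrophils and macrophage markers to 515 and 448 CPM, and their part in the result was not tested.

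T cells, which are not known to express these receptors, held more UMIs of most of them per 1000000 in the UDSP-Hep library. In these cells the 9 members lay between 0.225 and 16.2 CPM. Of 8 members with enough UMIs there, 7 were called higher in UDSP-Hep and 0 lower, against 9.6% and 4.11% of genes. Clec4e was at 5.35 and 16.2 CPM in T cells, Clec4n at 2.42 and 7.77 CPM, and the 8 neutrophil markers at 10.2 and 55.3 CPM in sum. For Mgl2 and Cd209a, 29 of 62 and 33 of 56 UMIs in UDSP-Hep T cells lay in 1 cell each. Without the cell with most UMIs of the gene in each library, their ratios in T cells were 1.27 (0.748 to 2.17) and 1.43 (0.736 to 2.80), and those of Clec4e and Clec4n were 3.23 (2.31 to 4.58) and 3.69 (2.18 to 6.52). NK cells (445 and 1453) did not repeat this in full. The ratio there was 1.82 (1.08 to 3.25) for Clec4e and 0.369 (0.173 to 0.793) for Mgl2. Clec4d and Clec4n, each with 6 and 33 UMIs, both had 1.79 (0.740 to 5.22), and Clec12a had 1.95 (0.869 to 5.15). Where the UMIs in T cells and NK cells came from was not tested. The macrophage levels of Clec4d, Clec4e and Clec4n in UDSP-Hep, 376, 334 and 236 CPM, were each more than 20 times those of T cells. Their ratios were 2.19, 3.03 and 3.21 in T cells and 3.61, 4.42 and 2.33 in macrophages. What part stray UMIs had in the macrophage values was not tested.

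The pathway around these receptors was read from lists named for the roles of their genes. The counts of every list stand against the shares of all genes called higher and lower, which were 12% and 6.25% in macrophages, 6.05% and 3.36% in monocytes, 5.99% and 5.34% in dendritic cells and 10.5% and 10.5% in neutrophils. In cDC2, read apart because the dendritic class differed in make-up, these shares were 4.97% and 2.21%. List genes were not read within the clusters of macrophages or monocytes. The part of the unequal cluster numbers in their ratios was not tested. Of the 11 adaptors and kinases next to the receptors, 2 of 11 were higher in macrophages, Src (ratio 4.20, 2.97 to 5.99) and Hcst (2.36, 2.07 to 2.70), and 0 lower. In monocytes 0 of 10 were called and in dendritic cells 1 of 11 (Src, 2.39, 1.40 to 4.09). In cDC2 alone 0 of 10 were called. In neutrophils 2 of 10 were higher, Vav3 and Vav1, with ratios of 2.31 and 1.81. These counts are small, and those of macrophages and neutrophils are near the shares of all genes. Without the C1q-holding cells 2 of 10 were again higher in neutrophils, but they were Vav3 (2.69) and Prkcd (1.80), with Vav1 at 1.44 (0.971 to 2.23). Over all genes, 8.17% were then called higher and 6.43% lower. Fcer1g, the gamma chain itself, named for its role after its values were seen, was at 1964 and 1417 CPM in macrophages, a ratio of 0.721 (0.702 to 0.741), and at 1787 and 2422 CPM in neutrophils, a ratio of 1.36 (1.22 to 1.51), or 1.23 (1.10 to 1.38) without the C1q-holding cells. Syk, named in the same way, had ratios of 1.44 (1.34 to 1.56) and 1.43 (1.10 to 1.88) in these cells, the second being 1.34 (1.01 to 1.82) without the C1q-holding cells.

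The median log2 ratios of these adaptors and kinases were 0.09 in macrophages, 0.26 in monocytes, 0.37 in dendritic cells and 0.33 in neutrophils, where all genes had medians of 0.07, 0.11, 0.04 and 0.15. Of a list of 4 phosphatases, not all of which act at inhibitory motifs, 0 were called in macrophages, monocytes and neutrophils. In dendritic cells 1 was (Inpp5a, ratio 1.81, 1.31 to 2.47). The medians were -0.04, 0.22, 0.27 and 0.23 in that order. In cDC2 alone 0 of 4 were called. The Card9 complex and its transcription factors had 1 of 11 called higher (Nfkb2, 1.53) and 1 lower (Nfatc2, 0.417) in macrophages. In monocytes Nfatc1 was called higher (1.56, 1.34 to 1.80) and Malt1 lower (0.612, 0.567 to 0.660). In dendritic cells, and in cDC2 alone, 0 of 11 were called. In neutrophils 4 of 10 were higher (Nfkb2, Rela, Nfatc1 and Nfkb1, with ratios of 2.40, 2.05, 1.98 and 1.90) and 1 lower (Irf5, 0.506). Without the C1q-holding cells 5 of 10 were higher, led by Nfkb1, Malt1, Nfkb2 and Rela (2.07, 2.01, 1.87 and 1.69), and 0 lower. The ratio of Irf5 was then 1.03 (0.598 to 1.92) and that of Nfatc1 1.69 (0.900 to 3.57), so neither call held. The medians of this list were 0.10 in macrophages, 0.32 in monocytes, 0.06 in dendritic cells and 0.61 in neutrophils.

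A further list held 15 genes known to be induced downstream of Dectin-1 or Mincle, which many other signals induce as well. In macrophages 5 of 11 were higher, led by the neutrophil chemokine Cxcl1 (12.4 and 99.9 CPM, ratio 8.08, 6.63 to 9.92), Tnf (26.5 and 77.5 CPM, 2.92, 2.49 to 3.43), Egr3 (2.21) and Cxcl2 (1.76). Il10, which restrains inflammation, was lower (21.7 and 4.93 CPM, 0.227, 0.142 to 0.346). In monocytes 4 of 11 were higher (Egr3, Cxcl1, Il1b and Nlrp3, with ratios of 2.99, 2.35, 2.20 and 1.72) and 2 lower (Il10 at 0.212 and Tnf at 0.622). Tnf thus lay on opposite sides of equality in macrophages and monocytes. In dendritic cells 6 of 12 were higher, led by Il1b (705 and 1829.6 CPM, ratio 2.60, 2.52 to 2.67), and 2 lower (Cxcl1 at 0.221 and Egr3 at 0.658). The list medians were 0.57, 0.09 and 0.65 in log2. In cDC2 alone 6 of 11 were higher and 1 lower.

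In neutrophils 8 of 11 of these downstream genes were called higher and 0 lower, against 10.5% and 10.5% of all genes. Without the C1q-holding cells 9 of 11 were higher, with Egr2 added at a ratio of 1.73 (1.01 to 3.19), and 0 lower. Tnf was at 189 and 587 CPM, a ratio of 3.10 (2.26 to 4.36), or 2.43 (1.77 to 3.41) without those cells. Cxcl1 and Csf3 had no UMI in the 57 PBS neutrophils and 545 and 157 UMIs in UDSP-Hep. Set against a floor of 3 UMIs over the PBS group, they were 18.4-fold and 5.29-fold higher. Without the C1q-holding cells these floor values were 14.4 and 4.15, and the lower limits of the intervals were 11.7 and 3.33. Il23a, also at 0 in PBS and counted among the 9, had a floor value of 1.45, under the ratio of 1.5, and a lower limit of 1.14. Egr3, with 1 UMI in PBS and 294 in UDSP-Hep, had a ratio of 29.7 (5.30 to 1178). The list median was 1.39 in log2, or 1.14 with the 3 genes at 0 in PBS set at their floor values, and 0.15 over all genes. The PBS side rested on few cells, as above.

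Other C-type lectins, 23 in the list, were mixed in direction. In macrophages 5 of 13 were higher, against 12% of all genes, led by Ly75 (1.58 and 18.5 CPM, ratio 11.7, 6.82 to 21.3), Clec1b (5.94), Colec12 (4.16) and Cd302 (1.74). There were 3 lower, against 6.25% of all genes, with Clec4b1 at 0.257, Mrc1 at 0.487 and Clec4a2 at 0.640. Mrc1, the mannose receptor and like Mgl2 a marker of alternative activation, was at 2031 and 989.5 CPM there. It was among the leading genes of macrophage cluster C21, which had 565 and 63 cells, and its ratio within the clusters was not read. It was at 146 and 36.3 CPM in monocytes, a ratio of 0.248 (0.212 to 0.290). Clec4b1 (0.532) was the other one lower there, while Cd209d (3.24) and Olr1 (1.86) were higher, so that 2 of 11 were called in each direction. In dendritic cells 4 of 15 were higher, Clec5a (2.32), Cd209e (1.87), Cd209c (1.66) and Cd209d (1.56), and 1 lower, Clec1a (0.238). In cDC2 alone 2 of 13 were higher and 1 lower.

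In neutrophils 3 of 11 other lectins were higher: Olr1 (23.6 and 152 CPM, ratio 6.45, 2.74 to 20.01), Clec5a (52.0 and 196 CPM, 3.78, 2.09 to 7.63) and Clec2d (3.09, 2.09 to 4.76). The 4 lower were Clec4b1, Mrc1, Clec4a2 and Clec4a1, with ratios of 0.0101, 0.310, 0.346 and 0.513. Without the C1q-holding cells the 3 higher were again Olr1, Clec5a and Clec2d (5.05, 4.04 and 2.41), and 2 of 10 were lower, Clec4a1 (0.414) and Clec4a2 (0.483). Mrc1 was then at 0.760 (0.304 to 2.45), and Clec4b1 had only 1 and 2 UMIs. The list median was 1.09 in log2, and -0.54 with Clec1a, at 0 UMIs in PBS, set at its floor value, so the median has no stable sign here. In macrophages, monocytes and dendritic cells the medians were 0.29, 0.29 and 0.09.

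Genes with the most similar profile to each member were found among 6746 genes by Pearson correlation of log2(CPM + 10) over 26 profiles, the groups with at least 30 cells in a library. The profiles share 2 libraries, their depth and their cell types, so these values are a description. Clec4d was nearest to Clec4e (r = 0.93), then Rab20 and P2ry2 (0.90 and 0.90), and Clec4e was nearest to C5ar1, Clec4d and Ets2 (0.93, 0.93 and 0.93). Clec4a3 followed Clec4a1, of the same family, the growth factor receptor gene Csf1r and Lyz2 (0.99, 0.98 and 0.94). Clec9a followed Gm43914, Mycl and Ppm1m (0.99, 0.99 and 0.90). Those of Clec4n were Cd14, F10 and Dock4 (0.91, 0.91 and 0.91), and those of Clec12a were led by Psap and Asah1 (0.89 and 0.88).

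The remaining members had other neighbours. Clec10a was nearest to Ccnd1, Slamf9 and Kdr (0.90, 0.86 and 0.86), Mgl2 to Dab2, Sh3pxd2b and Spint1 (0.88, 0.87 and 0.83), and Cd209a to its family member Cd209e, Bex6 and Spint1 (0.89, 0.87 and 0.85). Mgl2 and Clec10a, with shared sequence, were not among each other's 3 nearest genes.

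Whether 2 members were found in the same cells was read after thinning each cell to 1000 UMIs. In intermediate phagocytes, cells with Clec4d held Clec4e more often than cells without it, in 38.8% against 20.8% of PBS cells and 37.9% against 26.4% of UDSP-Hep cells. In neutrophils the shares were 59.5% against 41.2% in PBS, from 37 and 17 cells, and 73.3% against 62.6% in UDSP-Hep. Clec4n was found in 29.7% against 41.2% of PBS neutrophils with and without Clec4d, the other way round, and in 42.7% against 37.0% of UDSP-Hep neutrophils. In macrophages with and without Clec4d, Clec4e was found in 13.8% against 6.47% of PBS cells and 25% against 21.3% of UDSP-Hep cells. In PBS macrophages Mgl2 was found in 34.3% against 21.9% of cells with and without Clec10a. In UDSP-Hep macrophages it was in 0 of the 12 cells with Clec10a, which allows a share of up to 25%, and in 5.05% of those without. In cDC2, Clec10a was found in 33.1% against 21.5% of PBS cells with and without Cd209a and in 43.2% against 18.9% of UDSP-Hep cells. For Mgl2 the same shares were nearer each other, 42.0% against 39.3% and 28.8% against 31.1%. In all, 12 pairs of member and group were read in both libraries, and the share was higher in cells with the other member in 20 of 24 values and lower in 4. These shares describe cells of 1 library each.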

How the data were processed

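Raw UMI counts per gene and barcode were used as the authors deposited them, 1 matrix per group, with the deposited gene names and barcodes. The submitters' processing notes name Cell Ranger 7.0.0, Seurat and the build mm10. The sources used here do not say how ambient RNA was treated. Genes were matched by symbol, and coordinates come from GENCODE M21 (GRCm38), by gene identifier.

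Cells with at least 200 genes, 500 UMIs and under 10% mitochondrial UMIs were kept, which removed 245 and 197 barcodes. Scrublet's own threshold marked 0.0138% and 0% of barcodes. Barcodes were therefore ranked by its score, and the top 417 and 480 removed, a rate of 0.8% per 1000 barcodes. Both libraries were clustered together with scanpy 1.11.5 on 2000 variable genes without the lectins, 30 components, 15 neighbours and Leiden resolution 1.0, giving 26 clusters. A name needed 3 markers at a log2 ratio of at least 1 and 10 CPM and a lead of 0.5, in a cluster whose doublet score averaged no more than 0.1. These thresholds were set with the data seen, and the names are rebuilt here, not the authors'. Clusters C6 (2 and 28 cells), C10 (99 and 152) and C22 (41 and 13) stayed unnamed.

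UMIs were summed per library and group, and CPM values have exact Poisson intervals. Ratios have exact conditional binomial intervals, computed with scipy 1.17.1. Deeper groups have narrower intervals: macrophages had 10118402 and 4867107 summed UMIs, neutrophils 211558 and 2091818. The calling code was run on simulated Poisson counts, the same model that the intervals assume. Such a run cannot show how the calls behave where a few cells hold many of a gene's UMIs. With 1 library per group no test between groups was possible.

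The members, lists, markers and alternatives were chosen with earlier results of these data known. All measured members are named in the main groups. Of the lists, the counts called in each direction are given, with at most 4 called genes of largest ratio per list, group and direction named. For each member up to 3 genes with the closest profile are named. One gene is not reported here, and the counts and medians of the adaptor and kinase list leave it out. Alternatives changed the clustering resolution (0.5 and 2.0), clustering of each library alone, a per-cell marker gate, doublets kept, a mitochondrial limit of 20%, thinning to 1000 UMIs, median-of-ratios scaling, equal weight per cell, no UMI minimum and a ratio of 2. After the data were seen, monocytes without C8, equal weight per cluster, intermediate phagocytes counted as macrophages, neutrophils without C1q-holding cells (members and lists) and T cells without the cell with most UMIs of a gene were added.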

Additional observations from a re-analysis of the deposited data

How the results depend on the processing

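No paired analysis was possible because each group was 1 library and the labels give no replicate numbers; for the same reason no replicate could be left out. Of the 4 class counts, that of macrophages (6 members) ran from 4 to 8 over its alternatives, within 1.5 times the reported count. In monocytes (2 members) it was 4 with doublets kept, 1 with cells thinned to 1000 UMIs and 1 at a ratio of 2. In dendritic cells (6) it was 2 with clusters weighed the same. In neutrophils (4) it was 2 with doublets kept, 2 with thinned cells and 1 without C1q-holding cells. Where a member had been called, 5 log2 ratios turned: Clec12a in macrophages to -0.038 with clusters weighed the same, Mgl2 in monocytes to 0.96 with each library clustered on its own, Clec9a in dendritic cells to 0.18 at resolution 0.5, Clec4e in cDC2 to -0.089 with the per-cell gate and Clec9a in cDC2 to -0.44 with thinned cells. The dendritic class at resolution 0.5 held mature dendritic cells only, so that value is not one of the same cell types. The cause of the other turns was not tested. In macrophages the log2 ratios of 5 members kept their sign over 12 settings, the reported one included, from 0.55 to 2.08 for Clec4d, 0.55 to 2.20 for Clec4e, 0.52 to 1.63 for Clec4n, -2.07 to -0.61 for Clec10a and -2.27 to -0.64 for Mgl2. Clec10a and Mgl2 reached the ratio required in all 12, and Clec4d, Clec4e and Clec4n in 11 each: Clec4d lost it with intermediate phagocytes counted as macrophages, Clec4e with doublets kept and Clec4n at resolution 0.5. Clec12a reached it in 6. In nonclassical monocytes Clec4d reached it in 7 of 10 settings, Clec4e in 8 and Clec4n in 5, with log2 ratios from 0.39 to 1.65, 0.25 to 0.87 and 0.08 to 0.90. At resolution 0.5 no cluster was named monocyte, cDC1 or cDC2, and the UDSP-Hep library alone gave no cluster named cDC1 or intermediate phagocyte, so these gave no value. The per-cell gate gave 66.9% of 13912 cells the class of their cluster, and 7.65% lay within 0.1 of its cut. Depth limits Clec9a outside dendritic cells, all members in the 16 UDSP-Hep cDC1 and all but 3 members in the 57 PBS neutrophils.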
